A study of Homo sapiens with 19 samples.

Results

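The comparison described here sets a pair of short hairpin RNAs against the same target, EGR1, beside each other: shEGR1#9 minus shEGR1#8 in 3 lymphoma cell lines. Its members are the 10 RNA libraries that carry either hairpin, out of 19 samples in the series. They form 5 pairs, namely OCI-LY10 replicates 1, 2 and 3 paired by number, 1 pair labelled TMD8 and 1 pair labelled SUDHL2. A further 5 libraries with a control hairpin were used to place each difference, and 4 chromatin samples were not analysed here. OCI-LY10, TMD8 and SUDHL2 are established lines of diffuse large B-cell lymphoma. The groups were OCI-LY10 with shEGR1#9, shEGR1#8 or control shRNA (3 libraries each) and TMD8 and SUDHL2 with the same 3 hairpins (1 library each). All 15 libraries came from cells given doxycycline at 20 ng/ml for 2 days, the control libraries included, so any effect of the inducer itself is common to them. Whether each line was a pool or 1 clone is not stated.

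A short hairpin RNA is cut by Dicer into a small duplex, 1 strand of which guides an Argonaute protein to matching transcripts. The intended target is matched along the whole guide, while other transcripts can be repressed through the seed, a short stretch near the guide's 5′ end, as a microRNA does. Hairpins against the same gene share the target and the act of expressing a hairpin, and hairpins of different sequence can have different seeds. The sequences of shEGR1#9 and shEGR1#8 were not used here, so their seeds were not compared. EGR1 is an immediate early zinc-finger transcription factor that B cells induce after antigen receptor signalling, and NAB1 and NAB2 are its corepressors.

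Levels are FPKM, fragments scaled to gene length and library size, and differences were taken as log2(FPKM + 1). The added 1 shrinks the differences of genes near or below 1 FPKM. A gene was called when its limma p-value, adjusted by the Benjamini-Hochberg method over all genes tested, was under 0.05. The 3 libraries of an OCI-LY10 group are not said to stem from independent cultures. The p-values therefore measure library-to-library spread, which could be technical only. In every OCI-LY10 library all 10 B-cell markers were at 1 FPKM or more. Their summed level was 2734 to 2855 FPKM with shEGR1#9, 2716 to 3013 FPKM with shEGR1#8 and 2420 to 2592 FPKM with the control. The profiles do not separate the TMD8 label from the SUDHL2 label. Spearman's rho across 25266 genes was 0.927 to 0.95 between libraries of these labels, against 0.935 to 0.946 within TMD8 and 0.939 to 0.9499 within SUDHL2. OCI-LY10 libraries reached at most 0.863 with either. Only 1 gene was at 5 FPKM or more in all TMD8 libraries and at 0.1 FPKM or less in all SUDHL2 libraries, and 0 genes the other way round, whereas the same counts for OCI-LY10 and TMD8 were 86 and 100. Whether the TMD8 and SUDHL2 pairs are separate lines was not tested, and every statement over 5 pairs rests on them.

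EGR1 itself was at about the same level with either hairpin, and not below the control in OCI-LY10. Its level there was 10.8, 11.8 and 22.7 FPKM in shEGR1#9 replicates 1 to 3, 10.04, 11.4 and 20.5 FPKM in the same replicates of shEGR1#8, and 8.57, 9.59 and 12.3 FPKM in control libraries. Replicate 3 was the highest of every group, and the hairpin groups overlap. In TMD8 the level was 9.95 FPKM with shEGR1#9, 10.8 FPKM with shEGR1#8 and 7.31 FPKM with the control, and in SUDHL2 it was 15.4, 13.7 and 17.0 FPKM in the same order. The fitted OCI-LY10 difference was 0.10 (95% interval -0.60 to 0.80), with an exact permutation p of 0.6, where 3 against 3 cannot go below 0.1. Over the 5 pairs the mean difference was 0.06, with an exact sign-flip p of 0.375, where the smallest possible is 0.0625. After scaling within each table the pair differences were 0.10, 0.06 and 0.13 in OCI-LY10, -0.17 in TMD8 and 0.17 in SUDHL2, so the 3 OCI-LY10 pairs had the same sign. With the replicate number as a block the OCI-LY10 interval narrowed to -0.18 to 0.38. Leaving out 1 library breaks a pair and leaves the replicate 3 libraries with unequal weight in the groups. The unpaired difference then became negative without shEGR1#8 replicate 1 (-0.09), without shEGR1#8 replicate 2 (-0.01) or without shEGR1#9 replicate 3 (-0.22).

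In OCI-LY10 the fitted differences of EGR1's relatives and corepressors were also near 0, with wide intervals. EGR2, which B cells induce alongside EGR1, was at 5.02, 5.55 and 7.54 FPKM with shEGR1#9, at 4.39, 5.65 and 8.42 FPKM with shEGR1#8 and at 3.48, 3.25 and 3.75 FPKM with the control. All 6 hairpin libraries were above the controls, and the hairpin difference was -0.00 (-0.45 to 0.44), with a sign that turned under several settings. The differences of EGR3, NAB1 and NAB2 were -0.02 (-0.27 to 0.24), 0.04 (-0.22 to 0.31) and -0.03 (-0.27 to 0.21). EGR4 stayed under 1 FPKM in every library. Outside OCI-LY10 the pairs lay farther apart, with 1 library per hairpin. In TMD8 and SUDHL2 the pair differences were 0.23 and 0.32 for EGR2, -0.46 and 0.28 for NAB1, and 0.21 and 0.01 for NAB2.

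**Figure D1:**
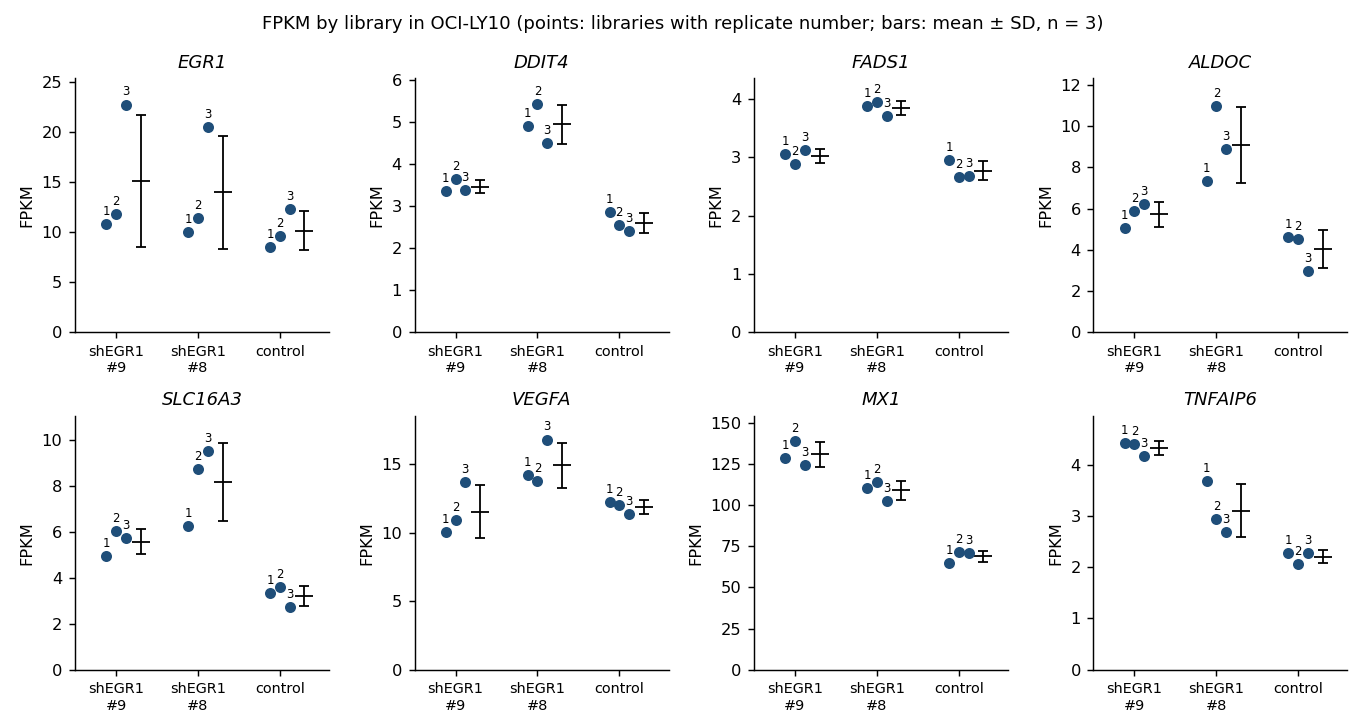
FPKM of 8 genes in the 9 OCI-LY10 libraries, by hairpin (horizontal) with shEGR1#9 left of shEGR1#8 and control; points are libraries numbered by replicate, and bars give mean ± SD (n = 3). EGR1 overlaps between hairpins, with replicate 3 the highest of each group, whereas DDIT4, FADS1, ALDOC, SLC16A3 and VEGFA are lower, and MX1 and TNFAIP6 higher, in all 3 shEGR1#9 libraries than in any shEGR1#8 library.

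Across the transcriptome no gene was called between the hairpins. In OCI-LY10, 0 of 10612 genes (0.0%) passed the adjusted threshold, the smallest limma adjusted p being 0.9997. Leaving out 1 library gave up to 9 calls: 9 without shEGR1#8 replicate 1, 8 without shEGR1#8 replicate 2, 2 without shEGR1#9 replicate 3, and 1 each without shEGR1#9 replicate 1, shEGR1#9 replicate 2 or control replicate 3. At an unadjusted p under 0.05 there were 267 genes (2.52%), 126 higher with shEGR1#9 (1.19%) and 141 lower (1.33%). All 3 shEGR1#9 libraries lay above all 3 shEGR1#8 libraries at 258 genes (2.43%) and below them at 307 (2.89%), 565 in all (5.32%). Libraries that do not differ by hairpin would separate this way at a rate of 0.1, the smallest exact p of 3 against 3. They would pass the unadjusted threshold at a rate of 0.05. Both shares seen were below these rates. The genes named below from these sets were chosen by smallest p, so the p-values and intervals printed with them are descriptions. The median size of a difference was 0.05. The 95% interval lay within 1 log2 unit of 0 at 10300 genes (97.1%) and within 0.5 at 9522 (89.7%). For those genes a larger difference is outside the interval, while differences of about 0.21, the median half-width, are not resolved. Set against the control libraries, 540 genes were called with shEGR1#9 (5.09%; 377 higher and 163 lower, 3.55% and 1.54%) and 566 with shEGR1#8 (5.33%; 394 higher and 172 lower, 3.71% and 1.62%). These comparisons share their controls, and their counts moved with single libraries. Leaving out control replicates 1, 2 and 3 in turn gave 168, 192 and 144 calls for shEGR1#9 and 136, 161 and 134 for shEGR1#8. Leaving out shEGR1#9 replicates 1, 2 and 3 gave 222, 148 and 169 calls for shEGR1#9 and 340, 267 and 391 for shEGR1#8. The highest counts were 1143 for shEGR1#9, without shEGR1#8 replicate 3, and 696 for shEGR1#8, without shEGR1#8 replicate 2. With the replicate block they were 351 for shEGR1#9 and 349 for shEGR1#8. Quantile normalization gave 266 higher and 200 lower for shEGR1#9 and 267 higher and 203 lower for shEGR1#8, and median-ratio scaling gave 301 higher and 212 lower for shEGR1#8.

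Genes called over both hairpins differed less between the hairpins than from the control. Averaged over the 6 hairpin libraries, 908 genes were called against control (8.56%; 620 higher, 5.84%, and 288 lower, 2.71%), with a median change of 0.37 in size, while the median size of their hairpin difference was 0.05. The hairpin difference was smaller than the shared change at 905 of the 908 (99.7%), and its 95% interval lay wholly inside the shared change at 846 (93.2%). These genes were selected for a shared change that is large beside the same library spread, so both shares are descriptions. Over the 9704 genes not called, the same shares were 69.0% and 4.82%, and the median size of the hairpin difference was also 0.05. The 908 became 314, 315 and 285 without control replicates 1, 2 and 3, 534 and 539 without shEGR1#9 replicates 2 and 3, up to 1312 without shEGR1#8 replicate 3, and 775 with the replicate block. The split was 526 higher and 379 lower with median-ratio scaling and 444 higher and 367 lower with quantile normalization. IFI6, an interferon-induced mitochondrial protein, averaged 73.2 ± 13.2 FPKM with shEGR1#9, 74.2 ± 20.9 FPKM with shEGR1#8 and 21.0 ± 0.7 FPKM with the control (SD, n = 3 each). Its hairpin difference was 0.01 (-0.46 to 0.47). IL4I1, a secreted amino acid oxidase, averaged 14.1 ± 1.7, 13.5 ± 1.1 and 3.88 ± 0.48 FPKM in the same order (difference 0.05, -0.19 to 0.30). CDKN1A, the p21 cell cycle inhibitor, averaged 47.6 ± 2.8, 49.9 ± 4.4 and 23.4 ± 1.8 FPKM (difference -0.07, -0.25 to 0.12). IRF7, ISG15 and the chemokine CCL3 differed between hairpins by 0.02, 0.02 and 0.04, against shared changes of 1.33, 1.24 and 1.12. Only SNORD49B, FADS1 and NPIPA3 had a hairpin difference larger than their shared change. NPIPA3 belongs to a family of near-identical copies, so its value is uncertain.

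**Figure D2:**
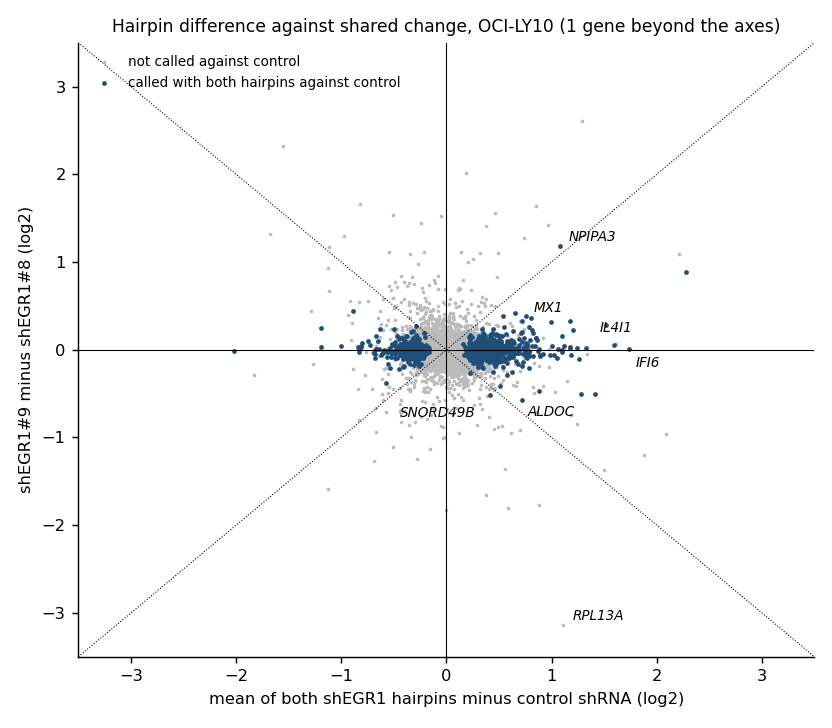
Each point is 1 of the 10612 genes tested in OCI-LY10, with the mean of both hairpins minus control on the horizontal axis and shEGR1#9 minus shEGR1#8 on the vertical axis (both log2), and dotted lines where the sizes are equal. The 908 genes called over both hairpins (blue) spread along the horizontal axis, the shared change being the larger at 905 of them, and 1 gene (RPL13AP5) lies beyond the axes.

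Among genes lower with shEGR1#9, none of them called, DDIT4 had the second smallest p. DDIT4 restrains mTORC1 and is induced by stress, hypoxia among others. Its level was 3.37, 3.64 and 3.38 FPKM with shEGR1#9, 4.90, 5.44 and 4.51 FPKM with shEGR1#8 and 2.87, 2.55 and 2.41 FPKM with the control. The shEGR1#9 libraries thus lay between the other groups without overlap. The difference was -0.41 ± 0.08 SE, with an unadjusted limma p of 0.00068. In TMD8 the order was the other way, 96.9 FPKM with shEGR1#9, 55.5 FPKM with shEGR1#8 and 29.7 FPKM with the control. FADS1, the delta-5 fatty acid desaturase, was at 3.05, 2.89 and 3.12 FPKM with shEGR1#9, at 3.87, 3.94 and 3.71 FPKM with shEGR1#8 and at 2.95, 2.66 and 2.68 FPKM with the control (difference -0.27, -0.41 to -0.12). KLHL14, a Kelch-family gene, was at 7.81, 7.80 and 7.82 FPKM with shEGR1#9 at 9.56, 9.69 and 9.20 FPKM with shEGR1#8 and at 8.59, 9.01 and 8.32 FPKM with the control. Here the control lay between the hairpins. ZNF444, a zinc-finger gene, was at 2.63, 1.75 and 2.59 FPKM with shEGR1#9, at 7.74, 10.7 and 4.86 FPKM with shEGR1#8 and at 1.53, 3.65 and 2.91 FPKM with the control, so that shEGR1#8 alone stood apart (difference -1.36, -1.99 to -0.72). The same gene differed by only 0.19 in TMD8 and 0.04 in SUDHL2. SNORD49B, SLC25A41, ZNF286A, LINC00403 and KHDC1L completed the 10 lower genes, with differences of -0.27 to -0.52.

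The smallest p of all went to MEF2BNB-MEF2B, a readthrough of neighbouring genes, whose value is uncertain because MEF2B shares its sequence. The readthrough was at 4.31, 4.50 and 5.69 FPKM with shEGR1#9, against 7.70, 10.7 and 9.00 FPKM with shEGR1#8. The difference was -0.79, with an unadjusted limma p of 9.6e-05. MEF2B itself, looked at after that value was seen, went the other way, at 5.48, 6.38 and 8.10 FPKM with shEGR1#9 and at 1.97, 0 and 5.23 FPKM with shEGR1#8.

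Of the genes higher with shEGR1#9, TNFAIP6, a secreted hyaluronan-binding protein, was at 4.41, 4.40 and 4.17 FPKM with shEGR1#9, at 3.69, 2.93 and 2.69 FPKM with shEGR1#8 and at 2.27, 2.06 and 2.28 FPKM with the control. The groups formed 3 separate steps (difference 0.38, 0.17 to 0.59). STK24, a kinase of the germinal centre kinase family, was at 41.7, 42.2 and 42.9 FPKM with shEGR1#9, at 27.2, 26.3 and 36.3 FPKM with shEGR1#8 and at 29.5, 26.7 and 29.9 FPKM with the control, so only shEGR1#9 stood above the rest (difference 0.50, 0.25 to 0.75). CCDC59 was at 29.3, 26.6 and 30.2 FPKM with shEGR1#9, at 16.8, 17.5 and 13.4 FPKM with shEGR1#8 and at 19.4, 31.6 and 31.9 FPKM with the control. DYRK4, a dual-specificity kinase, was at 5.22, 6.64 and 5.77 FPKM with shEGR1#9, at 3.44, 4.82 and 3.12 FPKM with shEGR1#8 and at 6.07, 6.25 and 6.05 FPKM with the control, which puts shEGR1#8 low and shEGR1#9 near the control. LINC00493 (0.27), SNORD17 (0.52), MTRNR2L9 (0.68, a copy of mitochondrial ribosomal RNA and uncertain), SNORD35A (0.76), RPL13AP5 and MIR4750 completed the 10. Over all genes whose hairpin groups did not overlap, the control mean was nearer to shEGR1#8 at 143 of the 258 higher genes and nearer to shEGR1#9 at 178 of the 307 lower ones.

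MIR4750 is a microRNA gene, and its mature strand is shown because it is the only microRNA locus among the 20 genes named in OCI-LY10. MIR6506 was named among the lowest differences of TMD8 and SUDHL2, and MIR4784 among the highest of SUDHL2. Sequences are those of RefSeq (GRCh38.p14), 5′ to 3′, with the seed (bases 2 to 8) in capitals.
hsa-miR-4750-5p: cUCGGGCGgaggugguugagug
hsa-miR-6506-5p: aCUGGGAUgucacugaauauggu
hsa-miR-6506-3p: uCGUAUCAgagauuccagacac
hsa-miR-4784: uGAGGAGAugcugggacuga
The 4 seeds differ from each other. The tables give a value per gene locus, which is not a measurement of the mature strand. MIR4750 was at 4.45, 7.99 and 6.504 FPKM with shEGR1#9, at 2.77, 3.49 and 2.84 FPKM with shEGR1#8 and at 2.93, 2.97 and 2.67 FPKM with the control (difference 0.83, 0.46 to 1.20), and it was listed at 0 in all TMD8 and SUDHL2 libraries. MIR6506 was at 5.87, 0.383 and 4.71 FPKM in OCI-LY10 shEGR1#8 replicates 1 to 3, and at 0.198 to 0.391 FPKM in the 3 shEGR1#9 libraries and the 3 control libraries. In TMD8 and SUDHL2 it was listed at 0 with shEGR1#9, at 3456 and 1585 FPKM with shEGR1#8 and at 0 with the control. It was named for being among the lowest TMD8 and SUDHL2 differences, so those values were fixed by the choice. It passed the filter across lines only through the shEGR1#8 libraries. In OCI-LY10 it was not tested, and shEGR1#8 replicate 2 was at the level of the other groups. MIR4784 was at 398 and 733 FPKM with shEGR1#9 in TMD8 and SUDHL2, listed at 0 with shEGR1#8 in both, and at 79.4 FPKM and 0 with the control. It was named for its SUDHL2 difference, so the SUDHL2 values were fixed by the choice. In OCI-LY10 MIR4784 was at 2.516, 0 and 1.078 FPKM with shEGR1#9 and at 1.116, 1.379 and 1.178 FPKM with shEGR1#8. The hairpin groups overlapped there, with a fitted difference of -0.20 (-1.12 to 0.73).

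Some of the largest OCI-LY10 differences came with libraries of 1 group far apart. A difference of 1 log2 unit or more was fitted at 40 genes, 26 higher and 14 lower, and at 35 of the 40 the libraries of 1 hairpin spread over a wider range than the difference itself. RPL13AP5, a processed pseudogene, was at 2816, 2935 and 2363 FPKM with shEGR1#9, at 3.84, 406 and 2.40 FPKM with shEGR1#8 and at 2926, 339 and 2962 FPKM with the control. Its parent RPL13A, a ribosomal protein gene, was at 375, 30.8 and 551 FPKM with shEGR1#9, at 1729, 1378 and 1899 FPKM with shEGR1#8 and at 562, 1434 and 20.3 FPKM with the control. Low values of one thus fell in libraries with high values of the other, and because the copies share sequence both are uncertain. FAM133DP and FAM133B formed a similar pair. FAM133DP was at 10.8, 9.10 and 8.80 FPKM with shEGR1#9 and at 8.36, 0 and 0 FPKM with shEGR1#8, while FAM133B was at 0.625, 0.681 and 0.769 FPKM with shEGR1#9 and at 0.906, 11.5 and 7.70 FPKM with shEGR1#8. MCL1, an antiapoptotic BCL2 family member, was at 89.5, 88.9 and 82.4 FPKM with shEGR1#9, at 24.3, 93.4 and 26.9 FPKM with shEGR1#8 and at 83.1, 91.3 and 84.6 FPKM with the control. The low values were in shEGR1#8 replicates 1 and 3 alone (difference 1.12, 0.18 to 2.05), and without replicate 2 MCL1 was called (1.73, limma adjusted p = 0.00016), as were RPL13AP5 and SNORD35A. In TMD8 and SUDHL2 it was at 52.4 and 73.5 FPKM with shEGR1#9, against 55.2 and 84.9 FPKM with shEGR1#8.

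**Figure D3:**
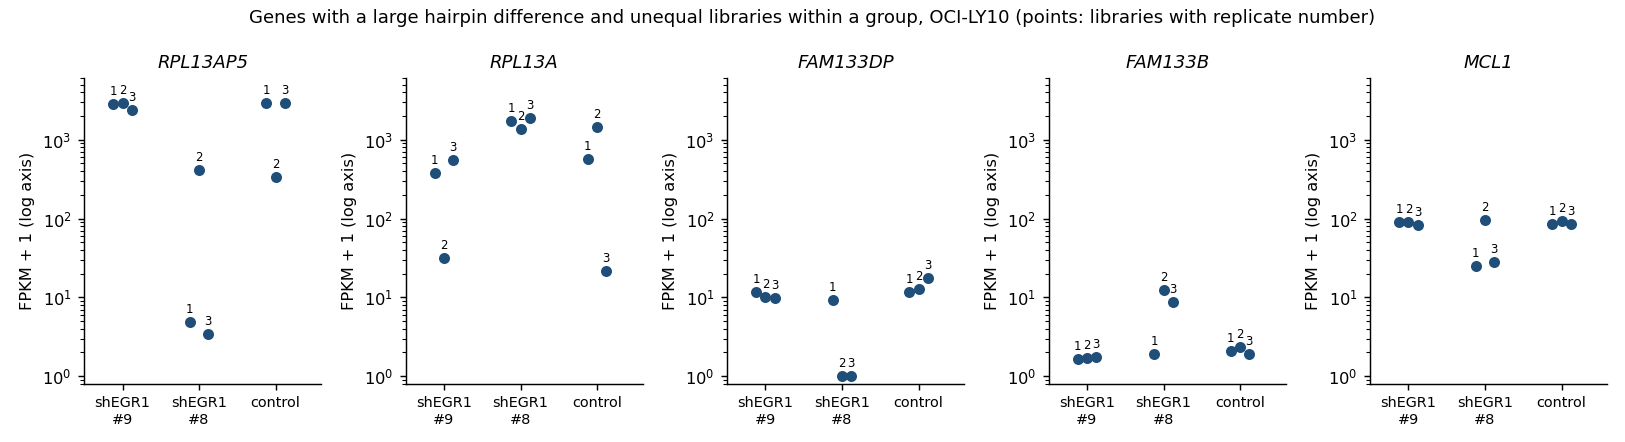
FPKM + 1 (log axis) of 5 genes in the 9 OCI-LY10 libraries, by hairpin with shEGR1#9 left of shEGR1#8 and control, points numbered by replicate. RPL13AP5 and RPL13A take opposite positions, as do FAM133DP and FAM133B, and MCL1 is low in shEGR1#8 replicates 1 and 3, at 24.3 and 26.9 FPKM, and at 82.4 FPKM or more elsewhere.

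Genes of glycolysis and the hypoxia response stood lower with shEGR1#9 than with shEGR1#8 in OCI-LY10, by small amounts. Of 27 members tested, 23 were below 0, 8 had an unadjusted p under 0.05, all lower (1.33% of all genes), and 8 were lower without overlap (2.89% of all genes). None was called, and the list's median was -0.11, against -0.00 over all genes. ALDOC, an aldolase, was at 5.06, 5.89 and 6.22 FPKM with shEGR1#9, at 7.35, 10.99 and 8.89 FPKM with shEGR1#8 and at 4.60, 4.54 and 2.95 FPKM with the control (difference -0.57, -0.95 to -0.20). SLC16A3, the lactate exporter MCT4, was at 4.97, 6.06 and 5.73 FPKM with shEGR1#9, at 6.28, 8.75 and 9.54 FPKM with shEGR1#8 and at 3.33, 3.60 and 2.72 FPKM with the control (difference -0.47, -0.79 to -0.14). Both genes were therefore above control with either hairpin and highest with shEGR1#8. VEGFA, the angiogenic growth factor, was at 10.01, 10.9 and 13.7 FPKM with shEGR1#9, at 14.2, 13.7 and 16.8 FPKM with shEGR1#8 and at 12.2, 12.03 and 11.3 FPKM with the control (difference -0.35). The glucose transporter SLC2A1 (-0.21), the histone demethylase KDM3A (-0.26), ANKRD37 (-0.38), the mitophagy receptor BNIP3 (-0.31) and lactate dehydrogenase LDHA (-0.15) made up the rest of the 8. DDIT4, described above, was a member of the amino acid response list and not of this one.

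The direction of that list was not carried by the other labels. Over the 25 members tested in all tables, the pair medians were -0.08, -0.14 and -0.15 in OCI-LY10, 0.27 in TMD8 and 0.04 in SUDHL2, and 21 of the 25 were above 0 in TMD8. SLC16A3 was at 6.92 FPKM with shEGR1#9 and 0.741 FPKM with shEGR1#8 in TMD8. ALDOC was at 37.9 FPKM with shEGR1#9 and 16.4 FPKM with shEGR1#8 there. The OCI-LY10 median was -0.06 without shEGR1#8 replicate 3, and the count at unadjusted p was 3 without shEGR1#9 replicate 1 and 5 without shEGR1#9 replicate 2.

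Interferon response genes leaned the other way in OCI-LY10. Of 45 tested, 41 were above 0, 8 had an unadjusted p under 0.05, all higher (1.19% of all genes), and 10 were higher without overlap (2.43% of all genes), none being called, with a median of 0.10. MX1, an antiviral GTPase, was at 129, 139 and 124 FPKM with shEGR1#9, at 110, 114 and 103 FPKM with shEGR1#8 and at 65.0, 71.2 and 70.6 FPKM with the control (difference 0.26, 0.11 to 0.41). OASL, an oligoadenylate synthetase-like protein, was at 8.71, 9.10 and 8.01 FPKM with shEGR1#9, at 6.45, 6.36 and 7.395 FPKM with shEGR1#8 and at 3.64, 3.09 and 3.23 FPKM with the control (0.31, 0.13 to 0.50). In both genes the step between hairpins was smaller than the step from control to either. IFIT1, an antiviral RNA-binding protein, differed by 0.28 (0.04 to 0.52) and IFI44 by 0.23 (0.01 to 0.44). IFI6 and ISG15, of the same list, are among the closest pairs given above. In TMD8 the list's median was -0.18, with 11 of 45 above 0, and in SUDHL2 it was -0.03, with 20 of 45 above 0. The OCI-LY10 count at unadjusted p ranged from 3, without shEGR1#9 replicate 2, to 12, without shEGR1#8 replicate 1, and was 4 without shEGR1#9 replicate 1 and 5 without control replicate 3.

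**Figure D4:**
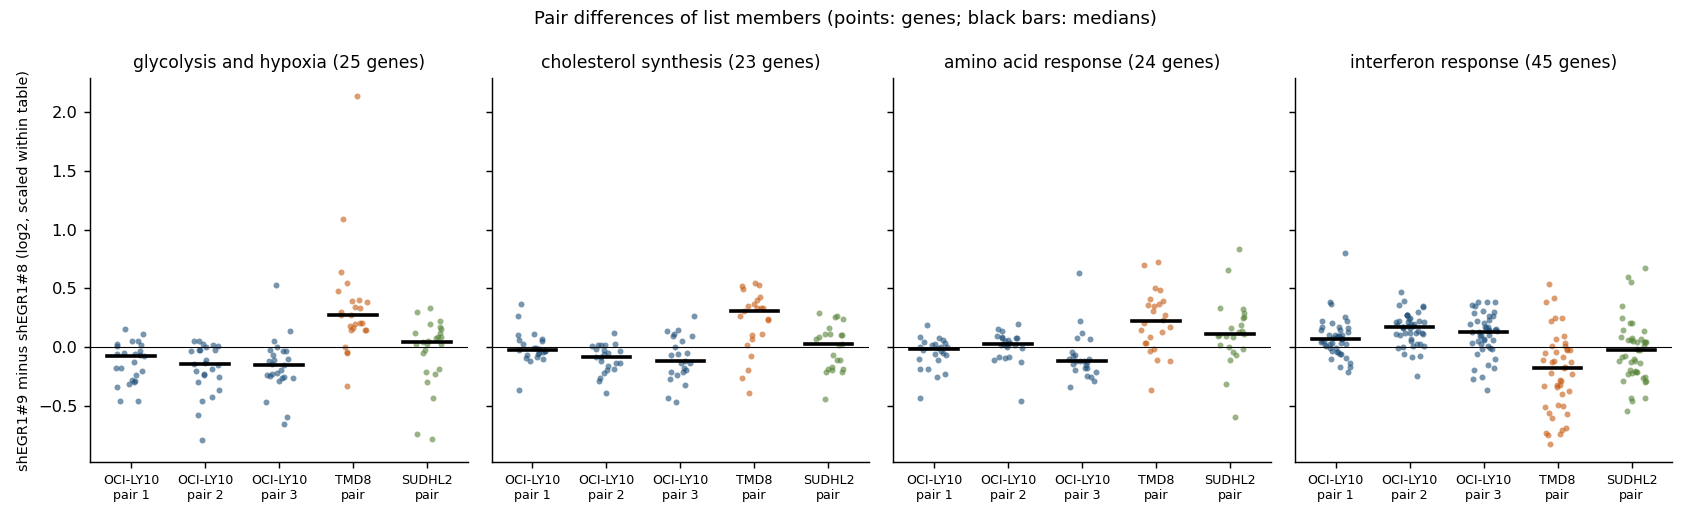
Differences shEGR1#9 minus shEGR1#8 (log2, libraries scaled within their table) of list members tested in all tables, 1 column of points per pair and black bars at the medians. The glycolysis and hypoxia medians are below 0 in the 3 OCI-LY10 pairs and at 0.27 in TMD8, and the interferon medians are above 0 in the OCI-LY10 pairs and at -0.18 in TMD8.

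The list of double-stranded RNA sensing holds sensors, which can respond to an introduced RNA duplex, and also signalling genes such as MAVS and TBK1. Its members were above 0 at 16 of 19, with 5 higher without overlap (2.43% of all genes) and a median of 0.06. The 2 at unadjusted p under 0.05 (1.19% of all genes) were OASL and OAS3. Both are also counted in the interferon list above, so the lists are not separate results. Over the 18 members tested in all tables the pair medians were -0.08 in TMD8 and 0.11 in SUDHL2. EIF2AK2, the kinase PKR, differed by 0.13 (-0.13 to 0.40) and IFIH1, the sensor MDA5, by 0.09 (-0.11 to 0.28). The machinery that processes hairpins was level, with a median of 0.00 over 15 members. DICER1 differed by 0.02 (-0.16 to 0.20), DROSHA by -0.04 (-0.19 to 0.11), XPO5, the exporter of hairpin precursors, by 0.03 (-0.09 to 0.15) and AGO2, the slicing Argonaute, by -0.08 (-0.23 to 0.08). DGCR8, the partner of DROSHA, was the exception at unadjusted p, with 11.3, 11.8 and 11.95 FPKM with shEGR1#9, 10.7, 10.1 and 10.1 FPKM with shEGR1#8 and 10.4, 10.9 and 11.5 FPKM with the control (0.17, 0.04 to 0.30).

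Sterol synthesis genes were below 0 at 21 of 24 members in OCI-LY10, with a median of -0.07. The TMD8 median was 0.31 and the OCI-LY10 median was -0.03 without shEGR1#8 replicate 2. Amino acid response genes were below 0 at 21 of 25, with a median of -0.03. Without shEGR1#8 replicate 3 these values became 10 of 25 and 0.01, and with array weights 14 of 25 and -0.00. Over the 24 members tested in all tables the pair medians were 0.22 in TMD8 and 0.11 in SUDHL2. The other 17 functional lists with at least 5 members tested had medians from -0.05 (MHC class I and peptide supply) to 0.05 (heat shock). Of their 436 entries, 6 were higher (1.19% of all genes) and 3 lower (1.33% of all genes) at unadjusted p under 0.05. MYC and nucleolar genes, DNA replication genes, mitotic genes and ribosomal proteins had medians of 0.01, 0.02, -0.00 and -0.01.

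In the fit across lines, with cell line as the block, 0 of 9322 genes were called (0.0%), the smallest limma adjusted p being 0.885. An unadjusted p under 0.05 was seen at 343 genes (3.68%), 173 of them higher (1.86%) and 170 lower (1.82%). That fit does not pair the OCI-LY10 libraries. With the 5 pairs as blocks, 0 genes were called and 279 had an unadjusted p under 0.05 (2.99%). All 5 pairs pointed up at 263 genes (2.82%) and down at 278 (2.98%), 541 in all (5.8%). Pairs with random signs would all point 1 way at a rate of 0.0625, the smallest exact sign-flip p, and the share seen was below it. Genes named from this set were also chosen by smallest p, so their p-values are descriptions. Among those lower in 5 of 5, SPATA5L1, an AAA ATPase, had the smallest p. It was at 7.42, 7.07 and 8.30 FPKM with shEGR1#9 in OCI-LY10, against 9.69, 8.62 and 10.02 FPKM with shEGR1#8. In TMD8 it was at 6.96 against 9.66 FPKM and in SUDHL2 at 5.93 against 10.7 FPKM in the same order. The control libraries were at 8.40, 8.29 and 7.09 FPKM in OCI-LY10, at 8.46 FPKM in TMD8 and at 6.98 FPKM in SUDHL2. The difference across lines was -0.41 ± 0.09 SE, with an unadjusted limma p of 0.0013. IL7, the lymphocyte growth factor, was at 7.21, 8.41 and 7.74 FPKM with shEGR1#9 in OCI-LY10 and at 9.02, 9.54 and 9.29 FPKM with shEGR1#8, then at 8.40 against 9.29 FPKM in TMD8 and 5.75 against 8.21 FPKM in SUDHL2 (-0.26 ± 0.07 SE). BARD1, the partner of BRCA1, differed by -0.48 across lines, with pairs from -0.03 to -0.81. Its OCI-LY10 hairpin groups overlapped, at 4.22, 7.53 and 4.11 FPKM with shEGR1#9 and 8.19, 7.80 and 7.14 FPKM with shEGR1#8. The control libraries there were also far apart, at 7.56, 3.76 and 7.53 FPKM. SNORA24, ZNF248, SCD5, STEAP1B, NREP, BOD1 and ZNF286A completed this set, at -0.25 to -0.52.

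Of genes higher in 5 of 5, CEP19, a centrosomal protein, was at 6.07, 6.29 and 5.83 FPKM with shEGR1#9 in OCI-LY10 and at 5.23, 4.63 and 5.39 FPKM with shEGR1#8. It was at 3.00 against 1.89 FPKM in TMD8 and 3.45 against 2.20 FPKM in SUDHL2. Across lines the difference was 0.31 ± 0.08 SE, with an unadjusted limma p of 0.0026. TRIM21, a cytosolic antibody receptor and ubiquitin ligase, showed an even step in every pair, 0.13 to 0.32. DOK1, an adaptor that dampens tyrosine kinase signalling, was higher by 0.04 to 0.39, and the tetraspanin CD151 by 0.04 to 0.34. SHISA5 was higher by 0.27 to 1.67, and in OCI-LY10 its shEGR1#8 libraries were at 11.8, 28.0 and 10.7 FPKM against 32.3 to 36.4 FPKM with shEGR1#9. NUDT3 (0.30) has a readthrough partner in the tables and is uncertain. SNORD35B, METTL12, RP9P and RPP25 completed the 10, at 0.22 to 0.59. In the NF-kB list, the chemokine CCL4 (0.31) and the inhibitor NFKBIA (0.25) were also higher in 5 of 5 pairs, out of 3 such members among 30 tested (2.82% of all genes).

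**Figure D5:**
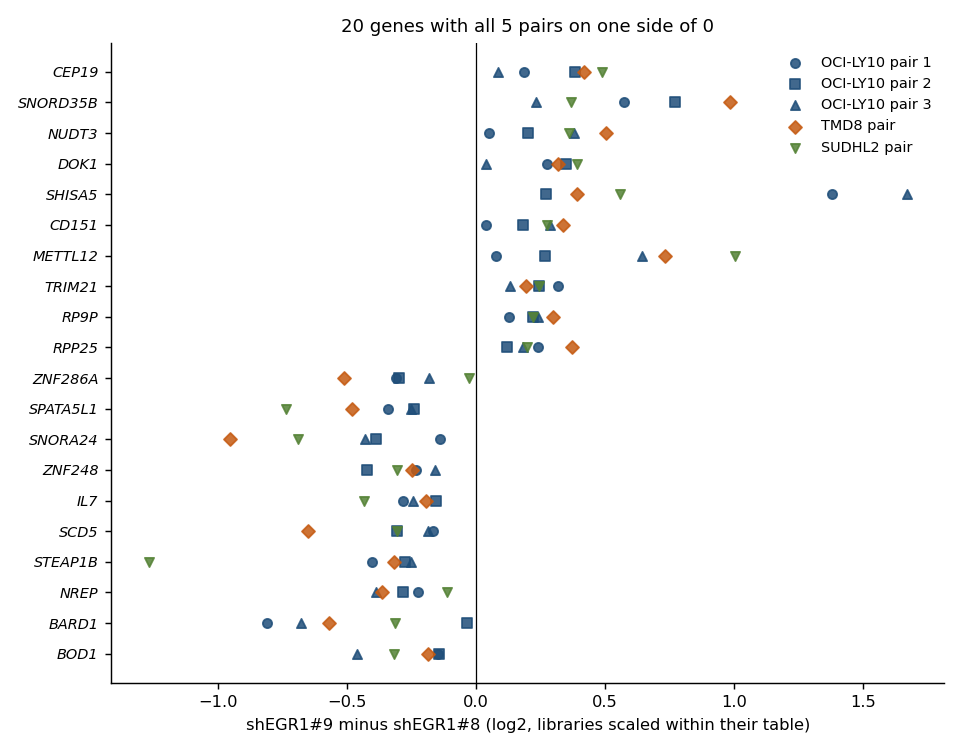
Differences shEGR1#9 minus shEGR1#8 (log2, libraries scaled within their table) of the 20 genes named for having all 5 pairs on 1 side of 0, 1 marker per pair. CEP19 to RPP25 lie right of 0 and ZNF286A to BOD1 left of it, and most markers are within 1 log2 unit.

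Spearman's rho of the pair differences across 9322 genes, given as a description since genes are not independent replicates, was 0.05, -0.08 and -0.21 between the OCI-LY10 pairs. It was 0.24 between TMD8 and SUDHL2, 0.30 between OCI-LY10 pair 2 and TMD8, and -0.36 between OCI-LY10 pair 3 and TMD8. The mean OCI-LY10 difference had a rho of -0.08 with TMD8 and of -0.03 with SUDHL2. Without OCI-LY10 replicate 3 these became 0.25 and 0.17. Of 215 genes higher without overlap in OCI-LY10, 52.6% were above 0 in TMD8 and 61.4% in SUDHL2, against 50.1% and 49.8% of all genes. Of 255 lower ones, 43.9% and 50.2% were above 0. The SD of the differences was 0.24, 0.23 and 0.28 in the OCI-LY10 pairs, 0.62 in TMD8 and 0.68 in SUDHL2.

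In TMD8 and SUDHL2 the genes farthest from 0 were all short RNA genes. Such genes held 53.6 to 63.1% of all FPKM in the 4 shEGR1 libraries of these labels, against 0.463 to 0.536% in OCI-LY10. SNORD78, a box C/D small nucleolar RNA, was at 9885 FPKM with shEGR1#9 and listed at 0 with shEGR1#8 in TMD8, but in SUDHL2 it was listed at 0 with shEGR1#9 and at 8918 FPKM with shEGR1#8. SNORD63 was reversed in the same manner, listed at 0 against 3831 FPKM in TMD8 and at 4892 FPKM against 0 in SUDHL2. SNORD27 and SNORD96A both had the value 1732 FPKM in the TMD8 shEGR1#8 library. Of the short RNA genes above 0, 15.3 to 24.5% shared their exact value with another such gene in these 4 libraries, against 2.99 to 6.03% in the OCI-LY10 shEGR1 libraries. The reads behind these values are unknown, and so is their counting error.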

How the data were processed

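RNA of 15 libraries was analysed, grouped by title and treatment label. The authors deposited 1 table per cell line with 1 value per gene and library, read here as FPKM. Neither labels nor headers name the unit, and it was inferred from values that are fractional and have unequal totals. The tools listed in the submitters' processing notes are HISAT, StringTie and Bowtie2, and the build is hg19. Versions and annotation: not given in the sources used here. Read totals are missing too, so depth and counting error are unknown and replicates alone set the precision. Repeated names (4, 10 and 10 lines) and 430 SUDHL2 lines that are joined to or repeat the TMD8 table were left out, leaving 25365, 25267 and 25266 genes.

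Values were analysed as log2(FPKM + 1) with limma 3.58.1 in R 4.3.3, moderated with a mean-variance trend. The OCI-LY10 fit held 9 libraries and 10612 genes at 1 FPKM or more in at least 3. The fit across lines held the 10 shEGR1 libraries, scaled by median ratios within their table, with cell line as a block, over 9322 genes with a mean of at least 1 FPKM in each table. Shared change is the mean of both hairpins minus control. Libraries of shEGR1#9 and shEGR1#8 were paired by replicate number, and whether same-numbered libraries share a culture or batch is not stated. Residuals of same-numbered hairpin libraries correlated at 0.173, 0.134 and 0.260, and those of differently numbered ones at -0.269 to 0.146. With same-numbered control libraries they correlated at -0.188 to 0.0597 for shEGR1#8 and at -0.0724 to 0.0411 for shEGR1#9. The pairing was not tested. The scripts were tested on simulated data.

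Named genes were the 10 higher and 10 lower of each fit, called genes first and then by smallest p among genes with no overlap between hairpins (or with 5 of 5 pairs in 1 direction), EGR1, its family and NAB genes, the 2 members of each list with the smallest p, and the 5 highest and 5 lowest genes of TMD8 and SUDHL2 with a mean of at least 5 FPKM. Some genes that this rule names are not reported here. The other genes named for illustration were chosen after their values were seen. Members and lists were chosen with earlier results of these data known. Symbols are as deposited. MicroRNA sequences come from RefSeq. Alternatives varied pseudocount, filter, scaling, weights, blocks and left-out libraries.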

Additional observations from a re-analysis of the deposited data

Results flagged for a closer look

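Among 79 genes checked, 5 had 1 pair difference far from the other 4. Chance alone does this in about 1 of 20 groups whose values share 1 spread. The SD over genes was 0.23 to 0.28 in the OCI-LY10 pairs, 0.62 in TMD8 and 0.68 in SUDHL2, so the rate here is unknown. The 5 genes were SNORD35A in TMD8 (8.74, where the shEGR1#8 library was listed at 0), SCD5 in TMD8 (-0.65), STEAP1B in SUDHL2 (-1.27), SRF in OCI-LY10 pair 3 (-0.12) and STIP1 in OCI-LY10 pair 1 (0.25).

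At 12 of the named genes all 3 OCI-LY10 pairs lay on 1 side of 0 and both the TMD8 and the SUDHL2 pair on the other. The share of all genes with this pattern is not given here. STK24, LINC00493, DYRK4, DDIT4, ZNF444, SLC25A41 and FADS1 were named because their OCI-LY10 hairpin groups did not overlap, which fixes the OCI-LY10 side beforehand. MX1, ALDOC, SLC16A3, FDPS and CD22 were named for a small p within their list, so their OCI-LY10 side was not free of the choice either. The difference between lines was not tested, and its size contains the OCI-LY10 difference. Given as the mean of the TMD8 and SUDHL2 differences minus the OCI-LY10 mean, it was 1.62 for SLC16A3, 1.47 for ZNF444, 1.27 for ALDOC, 0.82 for DDIT4, 0.69 for SLC25A41, 0.43 for FDPS, 0.35 for FADS1 and 0.34 for CD22. It was -0.64 for DYRK4, -0.57 for STK24, -0.44 for MX1 and -0.35 for LINC00493.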

How the results depend on the processing

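For shEGR1#9 against shEGR1#8, 0 genes were called in OCI-LY10 under the other settings for scaling, pseudocount, stricter filter, weights, trend and replicate block (277 at unadjusted p under 0.05 with the block). The exceptions were 1 gene (CD3D) with no filter on low values and 0 to 9 genes with 1 library left out. Across lines 0 were called under all 15 alternatives, the replicate block included. The lists held 1 called member with no filter (CD3D) and 0 to 1 with 1 library left out. Calls against control, from 540 for shEGR1#9 and 566 for shEGR1#8, became 351 and 349 with the replicate block, 1950 for shEGR1#9 with array weights, and 144 to 1143 and 134 to 696 with 1 library left out. The 908 calls over both hairpins became 1914 with array weights and 285 to 1312 with 1 library left out, in settings added after seeing the data. Genes with 5 of 5 pairs up or down numbered 168 and 179 with a filter at a mean of 5 FPKM, which tests fewer genes. The rho with SUDHL2 ranged from -0.12 to 0.17 with 1 replicate left out. The causes were not tested. Signs of differences near 0 turned. EGR1 ranged from -0.22 to 0.39 with 1 library left out. EGR2 was 0.0015 with median-ratio scaling, 0.0038 with quantile normalization, 0.0025 and 0.00069 with pseudocounts of 0.1 and 0.5, and 0.043 with array weights. PRF1 was 0.00056 with quantile normalization. Array weights gave 0.040 for PRF1, -0.045 for NAB1, 0.041 for NAB2, -0.018 for XPC, -0.037 for CTH, -0.11 for HIST2H2AC and -0.028 for PECAM1. With 1 library left out the ranges were -0.19 to 0.22 for EGR2, -0.11 to 0.092 for EGR3, -0.11 to 0.14 for NAB1, -0.14 to 0.058 for NAB2, -0.066 to 0.11 for AGO3, -0.094 to 0.0013 for SLAMF7, -0.17 to 0.022 for ASPM, -0.030 to 0.057 for XPC, -0.094 to 0.035 for GADD45B and -0.13 to 0.11 for CTH. They were -0.015 to 0.30 for DERL3, -0.0013 to 0.079 for AHSA1, -0.0070 to 0.13 for UQCRC1, -0.020 to 0.16 for HIST1H2BC, -0.11 to 0.23 for HIST2H2AC, -0.027 to 0.060 for POU2AF1, -0.053 to 0.13 for CD247, -0.053 to 0.033 for PRF1, -0.098 to 0.058 for EPCAM and -0.10 to 0.10 for PECAM1. List medians under these settings were added after seeing the data. Depth is unknown, and TMD8 and SUDHL2 have 1 library per hairpin.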

Other observations

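Some genes were above 0 with 1 shEGR1 hairpin and at 0 with the other, in OCI-LY10 mostly near the floor. At 15 of 25365 genes all 3 OCI-LY10 shEGR1#9 libraries were at 0.1 FPKM or more and all 3 shEGR1#8 libraries at 0, and at 0 genes the reverse. Except for HSPE1-MOB4, at 2.13 to 5.07 FPKM, the 15 were under 1 FPKM in every shEGR1#9 library. The libraries had 14054 to 14638 genes above 0 with shEGR1#9, 13442 to 14128 with shEGR1#8 and 14117 to 14345 with the control, and the part of detection in the count was not tested. At 4 of the 15, CD3D, LOC102723483, RGL2 and VIM, the control libraries were also at 0. CD3D, a T-cell receptor subunit, was at 0.199, 0.156 and 0.194 FPKM with shEGR1#9 and at 0 in TMD8 and SUDHL2 with either hairpin. In each OCI-LY10 library 6 to 8 of the 11 T and NK cell markers in the table were at 0. Others were expressed there: CD247 averaged 22.9 FPKM with shEGR1#9, 22.5 FPKM with shEGR1#8 and 13.8 FPKM with the control. PRF1 averaged 11.7, 11.8 and 8.40 FPKM in the same order. VIM, the intermediate filament vimentin, was at 0.121, 0.108 and 0.112 FPKM with shEGR1#9. Under the TMD8 and SUDHL2 labels together, 12 of 25266 genes were at 1 FPKM or more with shEGR1#9 and at 0 with shEGR1#8 in both, and 12 genes the other way round. MIR6506 and MIR4784 were among them, and so were the microRNA genes MIR1182, MIR4321 and MIR4517.

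CD68, a lysosomal macrophage marker that other cells also express, was the only 1 of 10 myeloid markers at the test level. It was at 1.99, 2.00 and 1.90 FPKM with shEGR1#9, at 1.72, 1.38 and 1.34 FPKM with shEGR1#8 and at 1.14, 0.674 and 0.789 FPKM with the control, while LYZ, S100A8 and S100A9 were at 0 in all 9 OCI-LY10 libraries. In TMD8 CD68 was at 22.2 FPKM with shEGR1#9, 12.4 FPKM with shEGR1#8 and 15.9 FPKM with the control, and in SUDHL2 at 8.56 FPKM with shEGR1#9, 16.03 FPKM with shEGR1#8 and 11.4 FPKM with the control.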
